A study of Mus musculus with 8 samples.

Results

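The genes described here are Gfap, Vim, Nes and Synm, 4 of the 54232 genes in the count files, and they were chosen by name as the intermediate filament genes of reactive glia. Their RNA was counted in single nuclei of perilesional forebrain, cut as a 2 mm cube. All mice were male Swiss Webster, 10 weeks old. The 8 libraries form 4 groups of 2: control, BCAS surgery, TBI (traumatic brain injury) surgery, and both surgeries (BCAS+TBI). The labels do not spell out BCAS, and the title of the study names cerebral hypoperfusion. They do not say whether control mice had a sham operation, how long after surgery tissue was taken, or whether a library pools animals. Libraries are named by group and by the number in their label (TBI 1 and TBI 2, for example), and each is labelled a separate biological replicate.

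Intermediate filaments are rope-like polymers of the cytoskeleton. GFAP is the main filament protein of astrocytes, and its rise is the classic histological sign of reactive gliosis after injury. Vimentin polymerises together with GFAP in reactive astrocytes and is also made by endothelial cells, fibroblasts and ependymal cells. Nestin marks neural progenitors, can reappear in reactive astrocytes and is made by cells of brain vessels. Synemin is a large filament protein that needs partners such as vimentin to polymerise.

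In the GENCODE M21 annotation of the GRCm38 mouse genome, Gfap (ENSMUSG00000020932) lies on the minus strand at chr11:102887336-102900912 and Vim (ENSMUSG00000026728) on the plus strand at chr2:13573927-13582826. Nes (ENSMUSG00000004891) lies on the plus strand at chr3:87971078-87980451 and Synm (ENSMUSG00000030554) on the minus strand at chr7:67730160-67759742. Gfap overlaps the long noncoding gene Gm26668, and Synm overlaps Ttc23 and Gm45102, in each case on the opposite strand. Whether reads were counted by strand is not given in the sources used here, so reads shared with these genes cannot be told apart. All 4 genes had an entry in the RefSeq promoter table (GRCm38.p6), which runs from 250 bases before to 50 bases after the start of transcription. The promoters of Gfap and Vim are shown because these are the filament genes detected together in astrocyte-like nuclei below, with matches to searched motifs in capitals:
Gfap, minus strand, chr11:102897151-102897450: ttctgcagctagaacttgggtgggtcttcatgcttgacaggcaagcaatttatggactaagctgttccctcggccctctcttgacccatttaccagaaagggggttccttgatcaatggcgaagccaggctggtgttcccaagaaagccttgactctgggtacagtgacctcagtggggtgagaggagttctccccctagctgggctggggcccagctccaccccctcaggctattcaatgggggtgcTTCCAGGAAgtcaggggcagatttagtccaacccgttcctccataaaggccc
Vim, plus strand, chr2:13574061-13574360: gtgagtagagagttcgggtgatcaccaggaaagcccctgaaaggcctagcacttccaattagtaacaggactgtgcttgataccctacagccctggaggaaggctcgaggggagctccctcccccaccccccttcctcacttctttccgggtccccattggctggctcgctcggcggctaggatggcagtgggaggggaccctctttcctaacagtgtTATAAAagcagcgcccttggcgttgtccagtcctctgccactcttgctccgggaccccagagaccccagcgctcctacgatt
These 5 motifs were searched on both strands: TTCNNNGAA for STAT factors, TGANTCA for AP-1, TATAAA for the TATA box, GGGCGG for Sp1 and TGACGTCA for the cyclic AMP response element. The capitals in the Gfap promoter mark a single TTCNNNGAA match that begins 2 bases before the start, and 8.30% of 32851 promoters hold this motif. The capitals in the Vim promoter mark a TATAAA match that begins 32 bases before the start, a motif held by 13.6% of promoters. The Nes promoter held 2 GGGCGG matches, found in 35.7% of promoters, and the Synm promoter held none of the motifs. The Gfap and Vim windows lie inside the gene spans given above. Distances are therefore from the RefSeq starts and not from the outer ends of these genes. A match describes letters in the window and does not show a bound site.

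The libraries held 28118725 to 56135192 UMIs (unique molecular identifiers, each a counted RNA molecule) in 6191 to 7882 barcodes, and 45560 nuclei were kept. They fell into sets by total UMIs, each with 1 library of every group. Set 1 (control 1, BCAS 1, TBI 1 and BCAS+TBI 2) had 28118725 to 33363564 UMIs with 1.20% to 2.77% mitochondrial UMIs, and set 2 (control 2, BCAS 2, TBI 2 and BCAS+TBI 1) had 42651388 to 56135192 UMIs with 0.511% to 1.04%. Pairs of libraries shared 5 to 20 barcodes. Clusters found without the 4 genes were named from marker genes, so a class is called astrocyte-like and so on. The 3339 astrocyte-like nuclei had all 14 astrocyte markers at least 2-fold above the other classes tested together. The same markers had named the class, so this is not an independent check of its identity. Unnamed clusters held 11159 nuclei (24.5%). Astrocyte-like nuclei made up 7.39% of the nuclei in control 1 and 7.03% in control 2, 8.82% in BCAS 1 and 7.48% in BCAS 2, 11.3% in TBI 1 and 3.55% in TBI 2, 7.25% in BCAS+TBI 1 and 7.36% in BCAS+TBI 2.

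Gfap was the only one of the 4 genes whose RNA lay mainly in astrocyte-like nuclei. Of its 3119 UMIs, 1890 (60.6%) were in that class, which made up 7.33% of the nuclei. A further 668 (21.4%) were in an unnamed cluster of 1877 nuclei led by oligodendrocyte genes (Prr5l, St18, Mag), whose median doublet score was 0.123. There the astrocyte markers were higher than in the other nuclei by a mean log2 fold of 1.22 and the microglia markers by 1.40. Vim and Nes lay elsewhere, as did Synm. Astrocyte-like nuclei held 199 of 1880 Vim UMIs (10.6%), 6 of 600 Nes UMIs (1.00%) and 54 of 2770 Synm UMIs (1.95%).

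**Figure D1:**
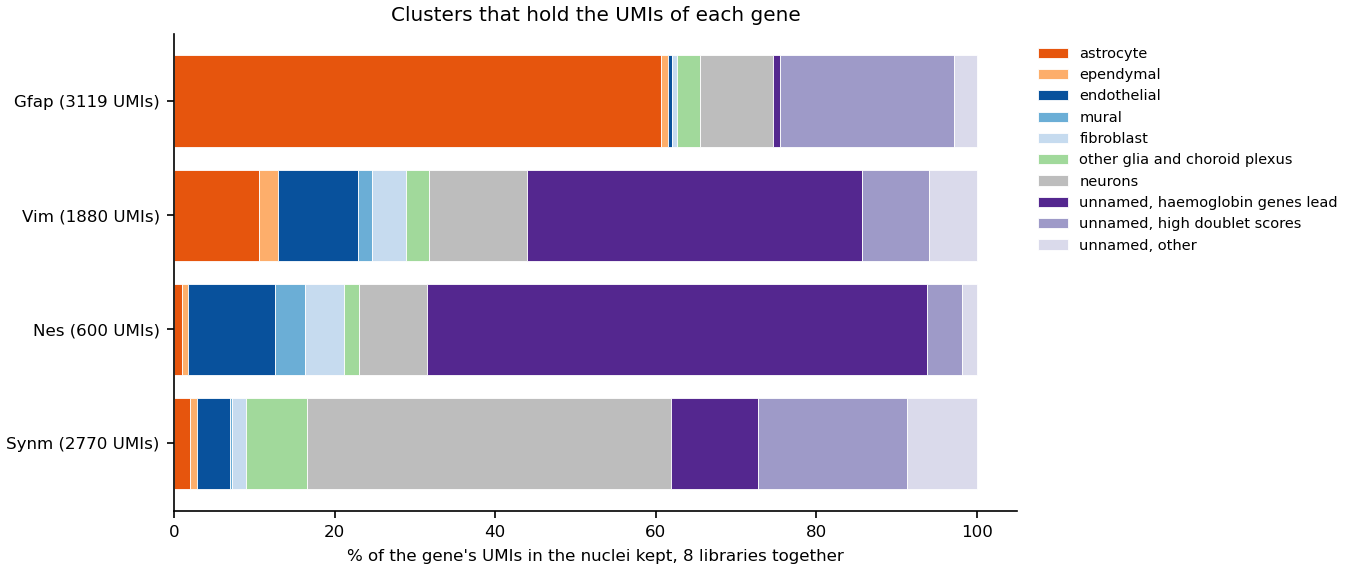
Share of each gene's UMIs (x axis, % of the UMIs in the nuclei kept, 8 libraries together) by named class or kind of unnamed cluster (colours). Astrocyte-like nuclei hold 60.6% of the Gfap UMIs, and unnamed clusters led by haemoglobin genes hold 41.7% of the Vim and 62.3% of the Nes UMIs.

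Most Nes RNA and the largest part of the Vim RNA came from few nuclei with vessel genes. A cluster of 149 nuclei led by Rgs5, a pericyte gene, the haemoglobin genes Hbb-bs and Hba-a1, and Cldn5, an endothelial junction gene, held 592 Vim UMIs (31.5%), 287 Nes UMIs (47.8%) and 215 Synm UMIs (7.76%). It stayed unnamed because haemoglobin genes led it, and its median depth was 9480 UMIs per nucleus. Vim had 356 CPM (the gene's UMIs scaled to the total of the nuclei) in this cluster, and 85.2% of its nuclei had a Vim UMI. Per library, with 7 to 39 nuclei each, Vim had 457 CPM in control 1, 347 in control 2, 509 in BCAS 1, 335 in BCAS 2, 347 in TBI 1, 300 in TBI 2, 281 in BCAS+TBI 1 and 359 in BCAS+TBI 2. Every library had Vim there, and libraries with and without TBI overlapped. Nes had 117 to 222 CPM and Synm 71.0 to 253 CPM in this cluster. The 7 unnamed clusters led by haemoglobin genes together held 784 Vim UMIs (41.7%) and 374 Nes UMIs (62.3%) in 1.97% of the nuclei.

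Levels of each gene across the 12 named classes were compared as means over the 8 libraries, and a pair of neighbouring classes was called apart where the mean difference exceeded its SD over libraries. Gfap had 268 ± 161 CPM (SD, n = 8) in astrocyte-like nuclei and 32.3 ± 26.5 in ependymal-like nuclei, the next class, and was higher in astrocyte-like nuclei in 8 of 8 libraries. From ependymal-like nuclei down to excitatory neuron-like nuclei (2.04 ± 1.55 CPM) no neighbours in the order differed beyond their spread. Vim had its highest mean in endothelial-like nuclei, 93.3 ± 25.8 CPM, followed by mural-like (57.8 ± 43.6), ependymal-like (44.3 ± 22.2), fibroblast-like (38.5 ± 14.6) and astrocyte-like nuclei (28.8 ± 19.9). None of these neighbours differed beyond their spread.

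Nes was highest in mural-like (32.9 ± 27.1 CPM) and endothelial-like nuclei (31.0 ± 16.7), which did not differ beyond their spread, and then in fibroblast-like nuclei (13.5 ± 9.50 CPM, n = 8). Fibroblast-like nuclei exceeded the next class, ependymal-like (6.90 ± 12.9), in 7 of 8 libraries. In choroid plexus-like nuclei 0 of 348 had a Nes UMI, which allows a share of up to 0.862%. In striatal projection neuron-like nuclei 0 of 1271 had one, which allows up to 0.236%. These limits cover counting error only, and they bound the share of nuclei with a UMI, not the share that express Nes.

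Synm had no single leading class among the named classes. Its means ran from 52.0 ± 30.6 CPM in endothelial-like nuclei over 36.3 ± 17 in choroid plexus-like and 32.1 ± 7.44 in oligodendrocyte-like nuclei down to 3.77 ± 5.71 in microglia-like nuclei (n = 8). The only neighbours apart beyond their spread were excitatory neuron-like (7.52 ± 0.879) over striatal projection neuron-like nuclei (5.34 ± 1.43), higher in 7 of 8 libraries. Astrocyte-like nuclei, at 8.44 ± 2.33 CPM, stood between inhibitory neuron-like (10.1 ± 2.56) and excitatory neuron-like nuclei and differed from neither beyond the spread. This order leaves out the unnamed clusters with vessel and haemoglobin genes. Over all libraries together, Synm had 129 CPM in the cluster of 149 nuclei and 163 CPM in one of 88 nuclei. It had 102 CPM in 32 nuclei, from 3 UMIs, and 29.4 CPM in 45 nuclei.

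**Figure D2:**
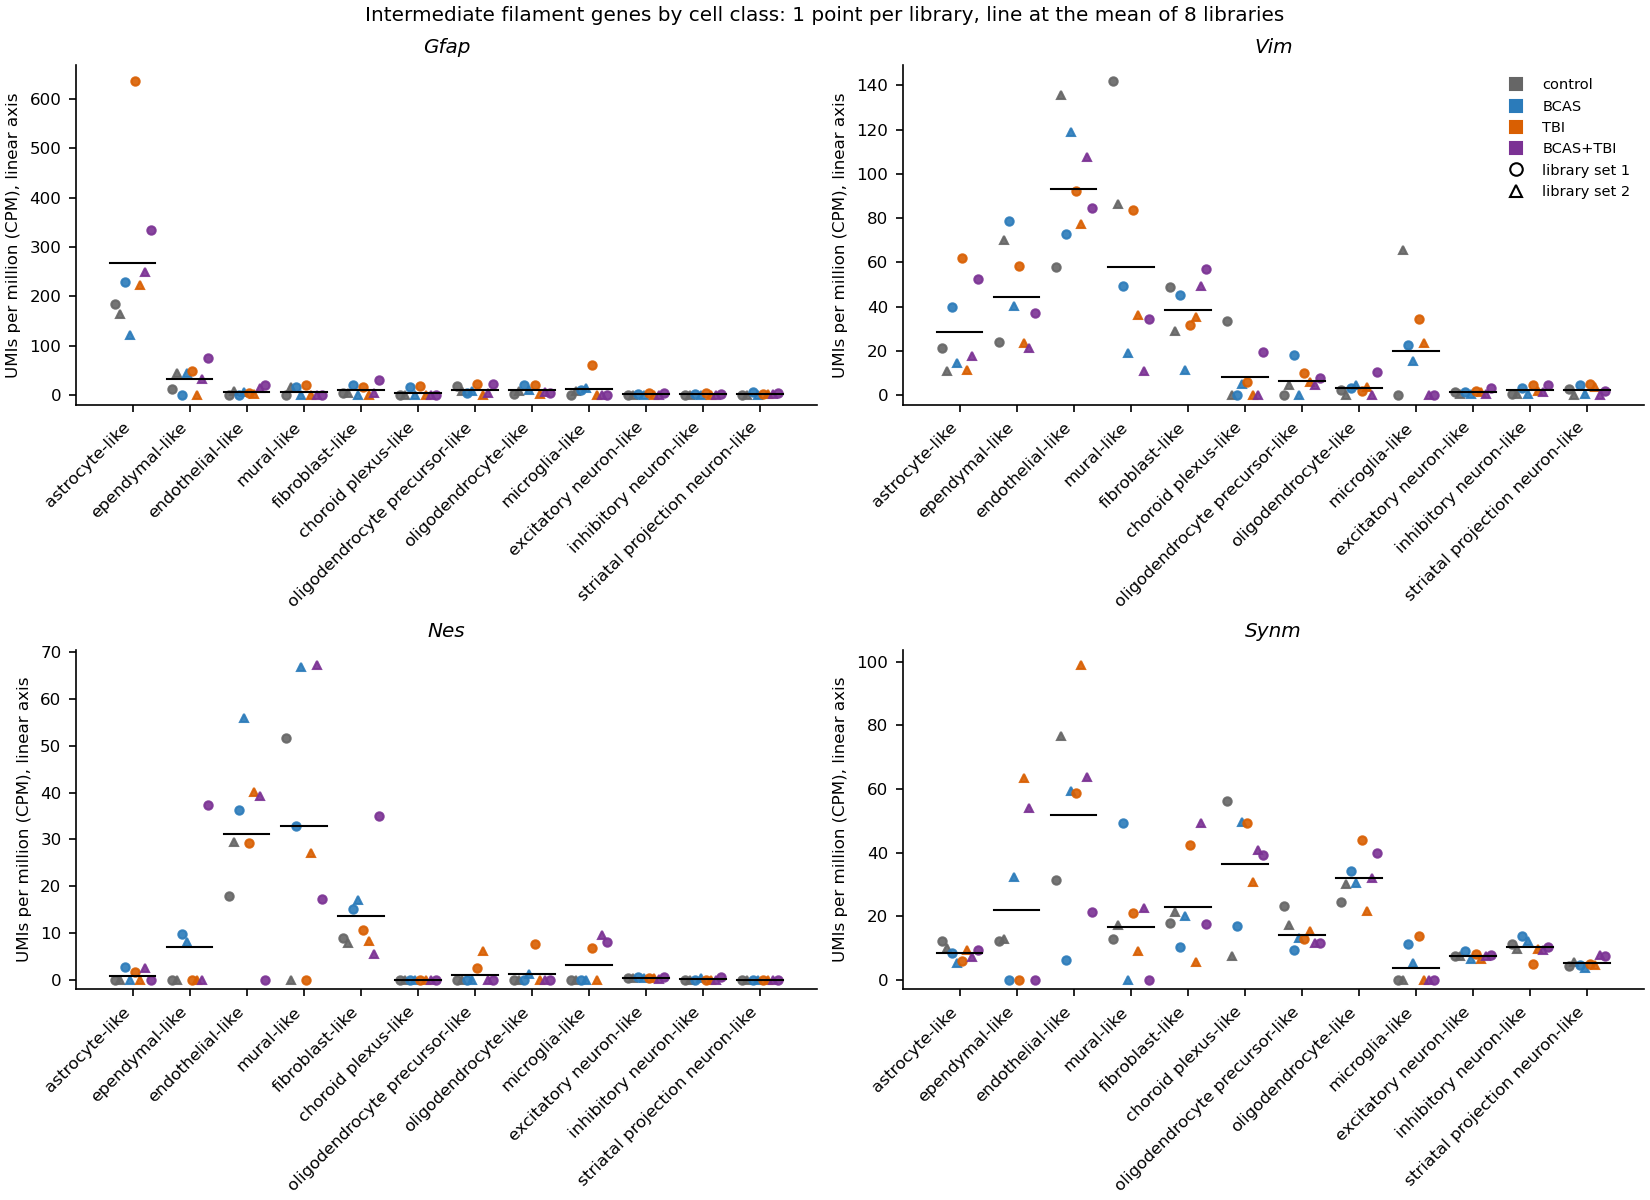
CPM (linear axes of different range) of each gene in 12 cell classes, with 1 point per library, colours for the groups, circles for library set 1, triangles for set 2 and a line at the mean of 8 libraries. Gfap stands out in astrocyte-like nuclei, Vim and Nes are highest in vascular classes, and Synm is spread over many of the named classes. Unnamed clusters are not shown.

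The genes whose pattern over 11 classes was most like that of each filament gene were taken among 5021 genes with at least 100 CPM in a class, by Pearson's r of log2(CPM + 10). The points are class means from the same 8 libraries, so these values are descriptions. For Gfap they were Agt, Mlc1 and Aqp4 (r = 0.995, 0.995 and 0.986), which encode angiotensinogen, an astrocyte end-foot protein and the astrocyte water channel. For Vim they were Lamb2, a laminin chain, Ahnak and Osmr, the oncostatin M receptor (0.949, 0.949 and 0.940). For Nes they were Tm4sf1, Rbpms and Igfbp7 (0.992, 0.975 and 0.970). For Synm the likeness was lower, with Heg1, Grb14 and Elovl7 at 0.877, 0.828 and 0.815. Among the 4 genes themselves, Vim and Nes were most alike (r = 0.889), and Gfap had r = 0.287 with Vim, -0.10 with Nes and -0.16 with Synm.

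In astrocyte-like nuclei Gfap was higher in the TBI libraries than in the others of the same library set. Its level was 185 CPM in control 1 and 165 in control 2, 229 in BCAS 1 and 123 in BCAS 2, 636 in TBI 1 and 223 in TBI 2, 249 in BCAS+TBI 1 and 335 in BCAS+TBI 2, from 118 to 751 UMIs per library. TBI 1 stood far above every other library, and TBI 2 lay just below BCAS 1, so the 4 libraries with TBI and the 4 without overlapped. Within set 1 the TBI libraries had 636 and 335 CPM against 185 and 229 without TBI. Within set 2 they had 223 and 249 against 165 and 123. Means were 361 ± 189 CPM with TBI and 176 ± 44.3 without (SD, n = 4).

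The design has BCAS and TBI as 2 factors, and the study's title asks whether hypoperfusion worsens the injury. In edgeR's quasi-likelihood test over 8 libraries, Gfap in the astrocyte-like class had, for TBI averaged over BCAS, a log2 fold change of 1.04 (SE 0.33, unadjusted p = 0.0122, adjusted p = 1.00 over 92091 pairs of a class and a gene). In this comparison 0% of the 92091 pairs passed the threshold of 0.05, although 1047 had an unadjusted p under 0.05. With the library set added to the model as a block, the log2 fold change was 0.99 (SE 0.16, unadjusted p = 6.52e-06, adjusted p = 0.060), and 0.0076% of pairs (7 of 92091) passed. Gfap thus did not pass in either fit. DESeq2 with the same block gave 0.97 with an adjusted p of 0.0566.

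The size of the Gfap difference rested in part on TBI 1. Without that library it was 0.55 (SE 0.27, adjusted p = 1.00) in the fit without the block and 0.68 (SE 0.15, adjusted p = 0.328) with it. It stayed above 0 in each fit that left out 1 library. With the block, Gfap passed the threshold when control 2 or TBI 2 was left out (1.20 and 1.19, adjusted p = 0.00185 and 0.00381), and when very deep nuclei, above 3 times the median of the same class in the same library, were removed (0.90, adjusted p = 0.0243). In the other 6 fits that left out 1 library with the block, the adjusted p was 0.0625 to 0.328.

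No change of Gfap with BCAS passed the threshold. For BCAS averaged over TBI the log2 fold change in astrocyte-like nuclei was -0.28 (SE 0.33, adjusted p = 1.00) without the block and -0.28 (SE 0.16, adjusted p = 1.00) with it, where 0% and 0.0869% of pairs passed. For BCAS+TBI against TBI it was -0.54 (SE 0.46, adjusted p = 1.00) and -0.46 (SE 0.22, adjusted p = 1.00), where 0% and 0.0347% of pairs passed. The interaction of the surgeries was -0.52 (SE 0.66, adjusted p = 1.00) and -0.36 (SE 0.32, adjusted p = 0.997), where 0% and 0.00109% of pairs passed. The unadjusted p of the same edgeR test, without and with the block, was 0.416 and 0.0953 for BCAS averaged over TBI. It was 0.270 and 0.0470 for BCAS+TBI against TBI, and 0.449 and 0.272 for the interaction. With the block, 3763 of 92091 pairs had an unadjusted p under 0.05 for BCAS+TBI against TBI. All 3 log2 fold changes turned positive, without and with the block, when TBI 1 was left out. With the block, the interaction also turned positive without control 1 (0.051). The TBI comparisons share their libraries, so these values are not independent of one another.

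**Figure D3:**
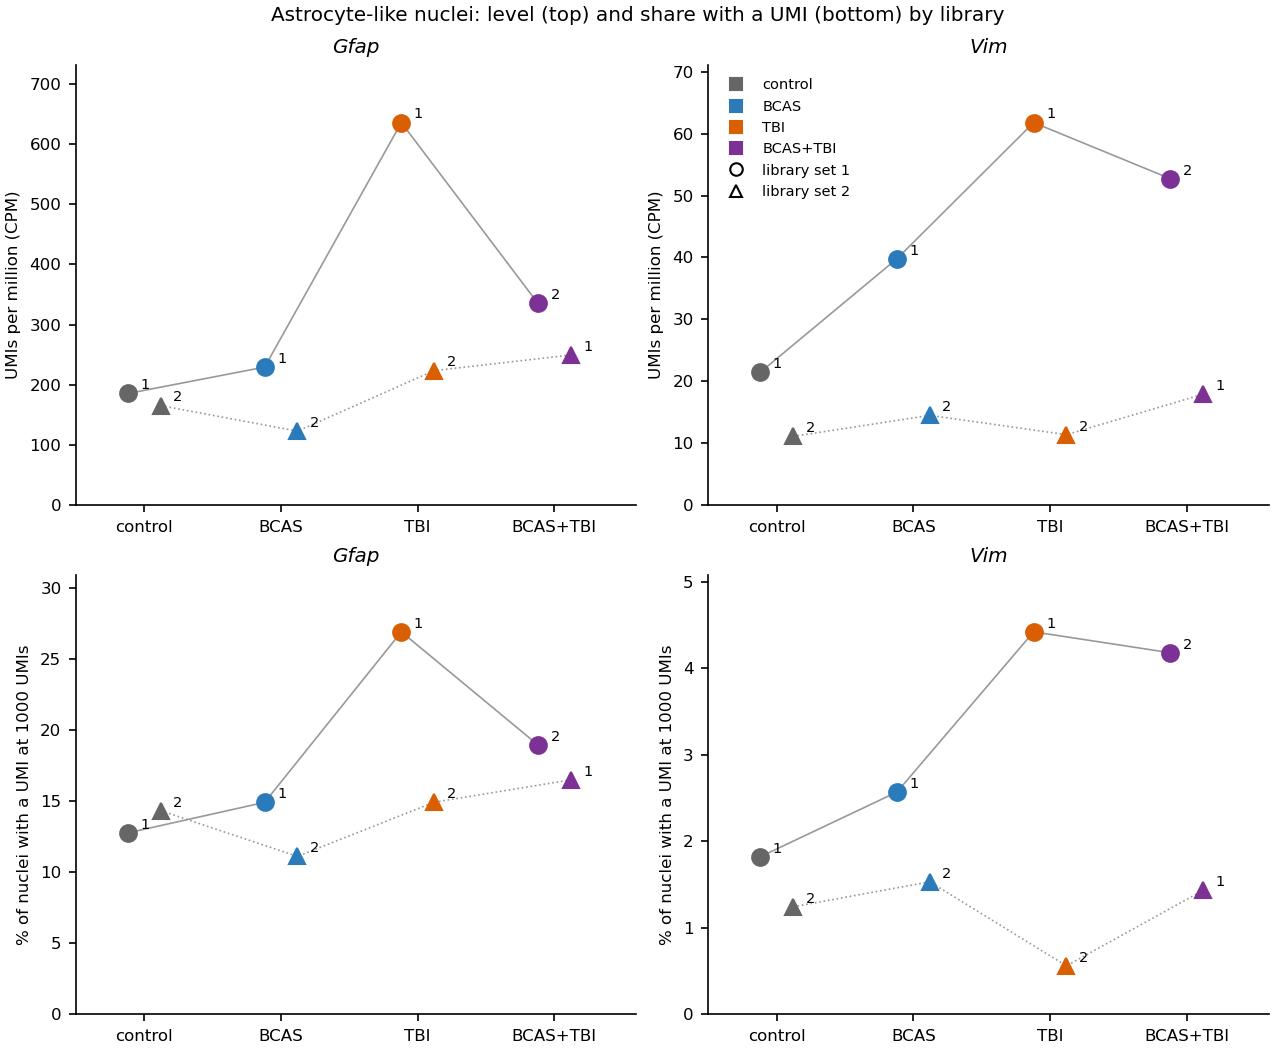
Gfap (left) and Vim (right) in astrocyte-like nuclei as CPM (top) and as the share of nuclei with a UMI after thinning to 1000 UMIs (bottom), 1 point per library, with grey lines that join the libraries of 1 set. In each set both TBI libraries lie above both others for Gfap CPM (636 and 335 against 185 and 229 in set 1), whereas Vim follows the library set.

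Vim in astrocyte-like nuclei followed the library set more than the surgery. It had 21.4 CPM in control 1 and 11.1 in control 2, 39.8 in BCAS 1 and 14.5 in BCAS 2, 61.8 in TBI 1 and 11.4 in TBI 2, 17.9 in BCAS+TBI 1 and 52.7 in BCAS+TBI 2, from 6 to 73 UMIs per library. The 4 libraries of set 1 all exceeded the 4 of set 2, in which TBI 2 was about level with control 2. For TBI averaged over BCAS the log2 fold change was 0.88 (SE 0.57, adjusted p = 1.00), and 0.76 with the block (SE 0.24, unadjusted p = 0.00585, adjusted p = 0.914). Without TBI 1 it was -0.02 in the fit without the block and 0.33 with it (adjusted p = 0.972), and with the block it ranged from 0.33 to 0.91 as each library was left out.

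Nes and Synm were near the limit of detection in astrocyte-like nuclei. Nes had 2 UMIs in each of BCAS 1, TBI 1 and BCAS+TBI 1 and 0 in the other 5 libraries. Synm had 12.3 CPM in control 1 and 10.1 in control 2, 8.23 in BCAS 1 and 5.11 in BCAS 2, 5.93 in TBI 1 and 9.46 in TBI 2, 7.16 in BCAS+TBI 1 and 9.30 in BCAS+TBI 2, each from 5 to 10 UMIs. Its range with TBI lay inside its range without. Both genes missed the filter on low counts in this class, so no test was made.

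Across the 11 classes fitted, 11 of the 44 pairs of a class and a filament gene passed the filter on low counts: 2 for Gfap, 5 for Vim, 4 for Synm and 0 for Nes. None was called in the 4 comparisons, with or without the block. For TBI averaged over BCAS without the block, 8 of the 11 log2 fold changes were above 0 (median 0.47), against a median of 0.00 over all pairs. For BCAS averaged over TBI the count was also 8 of 11 (median 0.11). It was 6 of 11 for BCAS+TBI against TBI and 4 of 11 for the interaction. The share of all pairs above 0 was not counted, and passing the filter depends on the level, so these counts are descriptions. Without the filter, 42 pairs were tested and 0 were called (smallest adjusted p = 0.0886, for TBI).

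Vessel classes showed wide spread and no call. Vim in endothelial-like nuclei had 58.0 CPM in control 1 and 136 in control 2, 72.6 in BCAS 1 and 119 in BCAS 2, 92.1 in TBI 1 and 77.3 in TBI 2, 108 in BCAS+TBI 1 and 84.7 in BCAS+TBI 2, and the 4 libraries without TBI all lay outside the range of the 4 with it, 2 below and 2 above. Its log2 fold change for TBI was -0.11 (SE 0.32, adjusted p = 1.00), with a sign that changed when control 2 (0.26) or BCAS 2 (0.12) was left out. Synm in the same nuclei had 31.2 CPM in control 1 and 76.6 in control 2, 6.05 in BCAS 1 and 59.4 in BCAS 2, 58.6 in TBI 1 and 99 in TBI 2, 63.7 in BCAS+TBI 1 and 21.2 in BCAS+TBI 2. BCAS 1 rests on 1 UMI, and the groups overlapped. The 4 libraries of library set 1 all lay below the 4 of set 2, narrowly between TBI 1 (58.6) and BCAS 2 (59.4). The log2 fold change of Synm was 0.39 for TBI (SE 0.50, adjusted p = 1.00, and -0.14 without BCAS+TBI 1) and -0.69 for BCAS (SE 0.49, adjusted p = 1.00). Nes in endothelial-like nuclei ranged from 0 CPM in BCAS+TBI 2 to 56.1 in BCAS 2, and Vim in mural-like nuclei from 11.2 CPM in BCAS+TBI 1 to 142 in control 1, where 11 UMIs were counted.

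The share of astrocyte-like nuclei with a Gfap UMI was lowest in control 1 at 17.4% (69 of 397, 95% Wilson interval 14.0% to 21.4%) and highest in TBI 1 at 37.2% (212 of 570, 33.3% to 41.2%). The other 6 libraries had 19.96% to 25.3%. Median depths of these nuclei were 1467 to 2441 UMIs, so shares were also computed after thinning each nucleus to 1000 UMIs, which left out 20 to 76 shallower nuclei per library. The thinned share was 12.7% in control 1 and 14.3% in control 2, 14.9% in BCAS 1 and 11.1% in BCAS 2, 26.9% in TBI 1 and 14.9% in TBI 2, 16.5% in BCAS+TBI 1 and 18.9% in BCAS+TBI 2. TBI 2 and BCAS 1 were nearly level at the border between the arms, and the lowest TBI library was 14.904% against 14.894% in the highest library without TBI. The mean was 19.3% ± 5.32 with TBI and 13.3% ± 1.70 without (SD, n = 4 libraries), a difference of 6.04 points. The exact two-sided permutation p was 0.0286, the smallest that 4 libraries against 4 allow, and 0.229 after adjustment over 8 tests. With assignments kept within library sets it was 0.0556, again the smallest possible. Without TBI 1 the difference was 3.51 points (exact permutation p = 0.0571).

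For the other genes the share did not differ beyond the spread between libraries. Thinned Vim shares were 0.559% to 4.42% with TBI and 1.24% to 2.57% without (difference 0.858 points, exact permutation p = 0.400, adjusted 0.686). Thinned Synm shares were 0.50% to 0.907% with TBI and 0.550% to 1.18% without (-0.179 points, exact permutation p = 0.314, adjusted 0.686). For BCAS the adjusted p of the exact permutation test was 0.571 for Synm, 0.849 for Gfap and Vim and 1.00 for Nes.

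Free RNA can give a UMI in a nucleus that does not express a gene, and neurons served as the reference for Gfap. Excitatory neuron-like nuclei had 0.427 to 4.59 CPM of Gfap, and 0.342% to 2.69% of them had a Gfap UMI at a median depth of 6522 UMIs, against 17.4% to 37.2% of astrocyte-like nuclei at a median of 1955. The highest value was in TBI 1 (4.59 CPM), followed by BCAS+TBI 2 (3.97 CPM) and BCAS 1 (2.76 CPM), all of set 1. The share of astrocyte-like nuclei with a Synm UMI, 1.22% to 2.30%, was below the 3.77% to 6.40% in these deeper neurons. After thinning to 1000 UMIs the shares overlapped, at 0.50% to 1.18% in astrocyte-like nuclei and 0.642% to 0.857% in these neurons. Excitatory neuron-like nuclei held 973 of the 2770 Synm UMIs, so they could not serve as background for Synm. Whether Synm in astrocyte-like nuclei exceeds background was not tested. Markers of other cells in astrocyte-like nuclei overlapped between the arms. The 10 microglia markers summed to 106 to 172 CPM with TBI and 81.8 to 161 without, with 8 of 10 higher on average with TBI, and the 10 endothelial markers to 71.9 to 195 CPM, highest in TBI 1, and 134 to 180. The 14 astrocyte markers summed to 23461 to 28620 CPM with TBI and 22415 to 29575 without. Among the markers of 16 cell types, the T cell marker Cd3g was at 0, as was an entry of the inhibitory neuron marker Dlx6os1. The part of other cells' RNA in the Gfap difference was not tested.

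Gfap levels differed among sub-clusters of astrocyte-like nuclei. Clustering these nuclei again, without the 4 filament genes, gave 7 sub-clusters. Sub-cluster 5, with 300 nuclei (8.98%), held 752 of the 1890 Gfap UMIs (39.8%) and 73 of the 199 Vim UMIs (36.7%), but 5 of the 54 Synm UMIs. It was led by Slc38a1, a glutamine transporter gene, Nrp2 and Myoc, the myocilin gene, and had 2940 CPM of Aqp4 against 513 to 952 in the others. Gfap stood at 1195 CPM there, with a UMI in 68.3% of nuclei, and Vim at 116 CPM in 13%. Sub-cluster 6, with 150 nuclei led by Thbs4, a thrombospondin gene, and Adgrv1, and with Tnc, the tenascin C gene, among its leading genes, had 424 CPM of Gfap. The remaining 5 had 79.6 to 290 CPM. Sub-clusters 1 and 3 came mostly from library set 1 and sub-clusters 2, 4 and 6 from set 2, so differences among them are also differences between sets. Sub-cluster 7, with 33 nuclei, was led by endothelial genes.

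The share of nuclei in sub-cluster 5 overlapped between libraries with and without TBI. It made up 10.1% of the astrocyte-like nuclei in control 1 and 11% in control 2, 6.36% in BCAS 1 and 8.11% in BCAS 2, 8.77% in TBI 1 and 13% in TBI 2, 10.7% in BCAS+TBI 1 and 5.80% in BCAS+TBI 2. Inside it Gfap had 903 CPM in control 1 and 661 in control 2, 713 in BCAS 1 and 604 in BCAS 2, 2586 in TBI 1 and 745 in TBI 2, 985 in BCAS+TBI 1 and 1438 in BCAS+TBI 2, from 22 to 50 nuclei per library. In the nuclei outside it Gfap had 107 CPM in control 1 and 110 in control 2, 197 in BCAS 1 and 88.5 in BCAS 2, 388 in TBI 1 and 130 in TBI 2, 162 in BCAS+TBI 1 and 263 in BCAS+TBI 2. In each library set, both TBI libraries exceeded both others inside and outside sub-cluster 5. Vim inside it had 316 CPM in TBI 1, from 42 UMIs in 40% of 50 nuclei. BCAS+TBI 2 had 303 CPM, but from 12 UMIs in 9.09% of 22 nuclei. The other 6 libraries had 12.4 to 89.1 CPM, with a Vim UMI in 3.03% to 10.3% of the nuclei. These values were not tested, because the clusters and the split were drawn from the same nuclei.

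**Figure D4:**
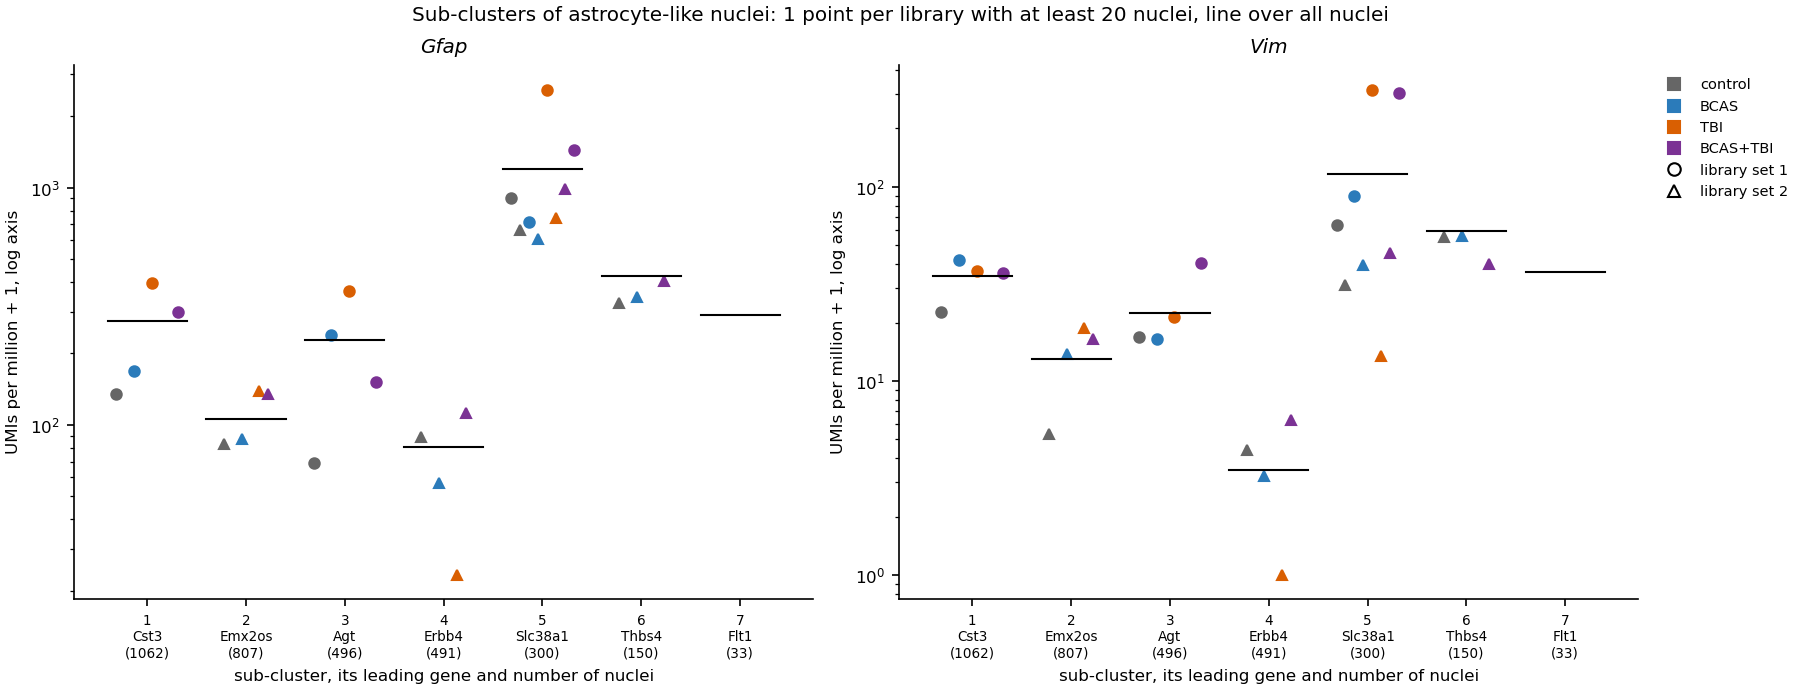
Gfap (left) and Vim (right) in 7 sub-clusters of astrocyte-like nuclei (x axis, with the leading gene and the number of nuclei), as CPM + 1 on a log axis, with 1 point per library that has at least 20 nuclei and a line over all nuclei. Sub-cluster 5 has 1195 CPM of Gfap over all its nuclei, and TBI 1 is its highest library at 2586 CPM.

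TBI 1 had the most nuclei with many Gfap UMIs. In that library 45 of 570 astrocyte-like nuclei (7.89%) had 5 or more Gfap UMIs, with a maximum of 75 in 1 nucleus. BCAS+TBI 2 followed with 13 such nuclei (3.43%) and BCAS+TBI 1 with 7 (1.71%). The other 5 libraries had 1 to 6 (0.208% to 1.32%). The 5% of nuclei with most Gfap held 49.3% of the Gfap UMIs in TBI 1 and 40.9% to 56.5% in the other libraries. Sparse counts alone give a large share to few nuclei, and this was not separated here. These counts were not thinned, and TBI 1 had a median depth of 1967 UMIs per astrocyte-like nucleus.

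**Figure D5:**
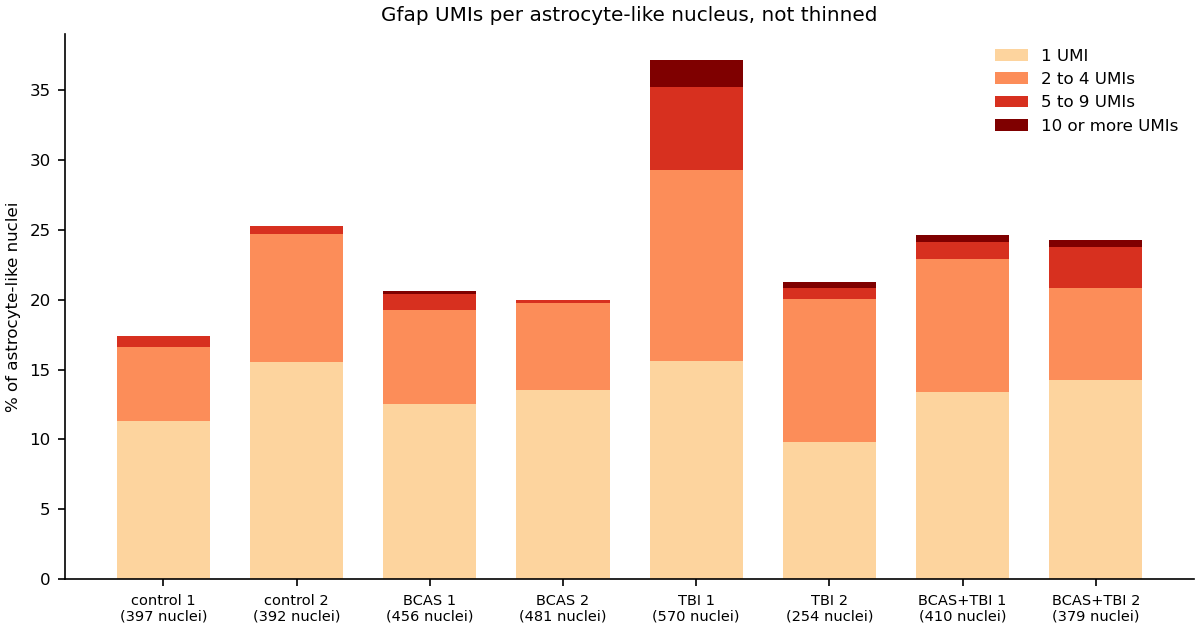
Share of astrocyte-like nuclei (y axis, %) with 1, 2 to 4, 5 to 9 or 10 and more Gfap UMIs in each library, stacked and not thinned, with the number of nuclei under each bar. TBI 1 reaches 37.2% in all, and 7.89% of its nuclei have 5 or more Gfap UMIs.

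Vim was found more often in nuclei that also had Gfap. Among astrocyte-like nuclei with at least 1000 UMIs, 769 had a Gfap UMI and 2233 had none. After thinning to 1000 UMIs, 5.22% of the former and 1.40% of the latter had a Vim UMI, at median depths of 2090 and 1937 UMIs. The share was higher with Gfap in 6 of 8 libraries, by most in TBI 1 (9.20% against 1.57%), and lower in control 1 and BCAS 2. For Synm the shares were 0.790% and 0.713%.

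Other genes that went with Gfap were read by comparing 366 astrocyte-like nuclei with at least 2 Gfap UMIs and 2522 with none, a choice made after seeing the data. There were 2054 genes with at least 100 CPM in either group of nuclei, so a gene could enter through the group where it was high. Of these, 178 were higher in the Gfap nuclei in all 8 libraries and 166 were lower in all 8. The counts that chance would give were not estimated. Slc38a1 had 546 CPM with Gfap and 96.9 without (median log2 difference over libraries 2.06, range 1.69 to 2.71). C4b, a complement component, had 441 and 76.1 CPM (1.87, range 1.62 to 2.68), and Aqp4 had 2246 and 571 CPM (1.80, range 1.62 to 2.13). Slc38a1 and C4b reached 100 CPM only in the Gfap nuclei, and Slc38a1 and Aqp4 are among the leading genes of sub-cluster 5. Among the lower genes, Luzp2 had 1164 and 2669 CPM (-1.45, range -2.32 to -0.51), Gria2, an AMPA receptor subunit, 696 and 1573 CPM (-1.39) and Slc7a10, a neutral amino acid transporter, 148 and 368 CPM (-1.20). The nuclei share libraries, those with Gfap were deeper (medians of 2157 and 1809 UMIs) and counts were not thinned, so these values are descriptions.

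Further cytoplasmic filament genes, where tested, were not called for TBI in the fit without the block. Neither were Gfap, Vim and Synm in the classes where they were tested, and Nes was not tested in any class. Of 13 further cytoplasmic filament genes, 4 were tested in astrocyte-like nuclei and 0 were called for TBI (median log2 fold change 0.21, against 0.01 over 10575 genes), and 0 were called in any of the 11 classes. Those with the smallest p were Ina, the internexin gene (0.58, SE 0.50, adjusted p = 1.00), and the keratin gene Krt10 (0.32, SE 0.69, adjusted p = 1.00). Of 7 nuclear lamina genes 6 were tested and 0 called (median 0.09). Lmnb1, a B-type lamin, had a TBI value of 0.67 (SE 0.40) and Lbr, the lamin B receptor, -0.64 (SE 0.36). For BCAS averaged over TBI, Lmna, the lamin A/C gene, had -0.79 (SE 0.28, unadjusted p = 0.0198, adjusted p = 1.00).

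Of 14 genes for filament linkers and handling, 10 were tested and 0 called for TBI (median 0.03). Dst, a plakin linker gene, had 0.23 (SE 0.18, adjusted p = 1.00). Of 11 transcription factor genes linked to astrocyte filament genes, 9 were tested and 0 called (median -0.02). Jun, a subunit of AP-1, had 22.7 to 52.7 CPM with TBI and 19.1 to 24.5 without (0.88, SE 0.31, unadjusted p = 0.0182, adjusted p = 1.00), and 0.80 with the block (SE 0.24, adjusted p = 0.838). Stat3, a factor known to drive Gfap in reactive astrocytes, had 86.8 to 136 CPM with TBI and 52.1 to 112 without (0.18, SE 0.24, adjusted p = 1.00).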

How the data were processed

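Nuclei of 8 libraries were measured by 3′ single-nucleus RNA-seq, and the deposited values are raw UMI counts per gene and barcode, which the authors made with version 7.0.0 of Cell Ranger, per the file headers. Per the submitters' processing notes, the genome was GRCm38 (mm10) and Seurat was used. The annotation release and the counting settings are not given in the sources used here.

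Barcodes were dropped below 500 UMIs or 300 genes or above 5% mitochondrial UMIs, and the 6% with the highest Scrublet doublet score in each library were removed, which left 45560 of 53390. Nuclei were clustered with scanpy 1.11.5 (3000 variable genes without the 4 filament genes, 30 components, 15 neighbours, Leiden resolution 1). A cluster was named where its markers had a mean log2 fold of at least 1.5, with at least 3 of them 2-fold higher and found in 10% of nuclei, and a median doublet score of at most 0.1. Counts were summed per library and class. Classes with at least 20 nuclei in each library were tested with the quasi-likelihood test of edgeR 4.0.16 (TMM, minimum count 10) in R 4.3.3. P-values were adjusted by Benjamini-Hochberg over all class-gene pairs of a comparison, and called under 0.05. Permutation tests, exact and two-sided over libraries (scipy 1.17.1), compared the shares of nuclei. The edgeR step was tested on simulated data. Alternatives were DESeq2 1.42.0, other normalization, filters, doublet handling, gating and resolution, blocks by library set and by replicate number, and leaving out each library.

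The 4 genes and the gene lists were chosen with earlier results of these data known. From each list up to 4 genes were to be named, those past the threshold or otherwise the 2 with the smallest p, and for each filament gene the 3 genes of most similar pattern. The 6% removal, the second split of clusters led by haemoglobin genes, the rule that a class leading the second by 3 mean log2 units takes the name, and the descriptions of sub-clusters, unnamed clusters, UMIs per nucleus and genes that go with Gfap were chosen after seeing the data. Ependymal-like nuclei were too few in some libraries to be tested. The libraries are labelled biological replicates, and p-values measure the spread between them. Some genes that these rules would name are not reported here.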

Additional observations from a re-analysis of the deposited data

Results flagged for a closer look

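In each group of 4 libraries with or without a surgery, the highest and the lowest library were checked for distance from the rest, for each filament gene and class with at least 100 UMIs. Of 72 groups checked 3 stood out, and chance marks about 1 in 20 groups. Gfap in astrocyte-like nuclei of TBI 1, at 636 CPM, stood apart from the other libraries without BCAS, with a gap of 0.876 of the range. Gfap in excitatory neuron-like nuclei of the same library, at 4.59 CPM, stood apart from the other libraries without BCAS with a gap of 0.919 of the range. Synm was found in 4.03% of the endothelial-like nuclei of control 1 (95% Wilson interval 1.86% to 8.51%), below the other libraries without BCAS, which reached 11.3%, with a gap of 0.877 of the range. This share was not thinned, and these nuclei had a median depth of 776 UMIs in control 1 against 927 to 1142.5 in the others. Thinned to 500 UMIs, it was 3.06% in control 1 against 4.57% to 5.32%. At 1000 UMIs it was 4.33%, from 43 nuclei, against 7.94% to 12.6%. The check was not repeated on thinned shares.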

How the results depend on the processing

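The Gfap difference with TBI in astrocyte-like nuclei stayed above 0 under every alternative run, from 0.55 to 1.31 with 1 library left out, from 0.68 to 1.20 with that and the library set block, and from 0.90 to 1.04 otherwise. The difference in its detected share was 3.51 to 7.50 points with 1 library left out and 3.92 to 9.40 otherwise.

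Counts of class-gene pairs past the threshold, 0 in all 4 comparisons, depended on the fit. For TBI they were 7 with the library set block, 42 with no filter, 2 with DESeq2, 3 with DESeq2 and the block, 6 with the block and without very deep nuclei, 0 to 1 with 1 library left out (1 without control 2) and 12 to 38 with that and the block. For BCAS they were 80 with the block, 110 with no filter, 3 with DESeq2 and the block, 0 with 1 library left out and 22 to 151 with that and the block. For BCAS+TBI against TBI they were 32 with the block, 33 with no filter, 1 with DESeq2 and the block, 1 with the block and without deep nuclei, 0 with 1 library left out and 21 to 71 with that and the block. For the interaction they were 1 with the block, 25 with no filter, 3 with DESeq2 and the block, 9 with the block and without deep nuclei, 0 with 1 library left out and 9 to 67 with that and the block. The replicate numbers did not pair the libraries across all 4 groups. Same-numbered libraries correlated at 0.50 to 0.65 among control, BCAS and TBI, and at -0.67 to -0.59 between these groups and BCAS+TBI. The numbers matched the library sets except in BCAS+TBI, where they were swapped. With a replicate block 0 pairs passed in each comparison, and Gfap in astrocyte-like nuclei had 1.03 for TBI (adjusted p = 1.00, edgeR).

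Other signs turned, and the cause was not tested. With 1 library left out, Gfap in astrocyte-like nuclei ranged from -0.56 to 0.20 for BCAS, from -1.11 to 0.43 for BCAS+TBI against TBI and from -1.10 to 0.45 for the interaction, with the highest value in each without TBI 1. With the block these ranges were -0.48 to 0.04, -0.89 to 0.16 and -0.82 to 0.24. For TBI, Vim in astrocyte-like nuclei ranged from -0.024 to 1.28, Vim in endothelial-like nuclei from -0.34 to 0.26 and Synm in endothelial-like nuclei from -0.14 to 1.67. Vim in endothelial-like nuclei was 0.092 with a gate on each nucleus, 0.10 without very deep nuclei and 0.025 with that and the block. For shares, Vim with BCAS was -0.328 points at 2000 UMIs and -0.167 to 1.22 with 1 library left out, and Gfap with BCAS was -3.35 to 1.36. Nes with TBI was -0.00085 at 500 UMIs, 0 for at least 2 UMIs and -0.0596 with the gate, and Nes with BCAS was 0 for at least 2 UMIs. Synm with TBI was 0.775 at 2000 UMIs and 0.116 with the gate. Nes and Synm values rest on 6 and 54 UMIs in astrocyte-like nuclei.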

Other observations

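Over all nuclei kept, without regard to class, Gfap had 7.83 CPM in control 1 and 6.56 in control 2, 12.1 in BCAS 1 and 7.33 in BCAS 2, 37.4 in TBI 1 and 4.30 in TBI 2, 8.31 in BCAS+TBI 1 and 17.8 in BCAS+TBI 2. TBI 2, whose astrocyte-like nuclei made up 3.55% of its nuclei, was the lowest library on this scale, although its astrocyte-like nuclei had 223 CPM, above control 2 (165) and BCAS 2 (123) of the same library set. In the unnamed cluster of 1877 nuclei led by oligodendrocyte genes, Gfap had 27.8 and 46.2 CPM in TBI 1 and 2, 12.7 and 25.2 in BCAS+TBI 1 and 2, and 9.58 to 15.02 in the 4 libraries without TBI. The value of TBI 2 rests on 18 UMIs in 36 nuclei, against 197 to 335 nuclei in the other libraries. BCAS+TBI 1 lay inside the range without TBI.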
